A study of Homo sapiens with 19 samples.

Results

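In serum-starved SKBr3 cells, 5042 genomic sites carried an ERRα peak after EGF and after heregulin (HRG) but none after vehicle. They were found by joining the peaks of the vehicle, EGF and HRG lists wherever peaks overlapped by at least 1 bp, and made up 9.00% of the 55998 joined sites. The members were therefore selected on the peak calls of these 3 lists, and their scores in the EGF and HRG lists are given as a description. A missing vehicle peak is the absence of a call below the threshold of the caller, not a measured absence of binding. SKBr3 is an established human breast cancer line with amplified ERBB2 (HER2). The vehicle, EGF and HRG cells were starved of serum for 24 h and then received PBS, or EGF or HRG for 90 min at a dose that the labels give as 100 μM. Each of these 3 lists stood for 2 ChIP libraries and 1 input library. The other lists came from parental SKBr3 (pSKBr3) cells, for which no treatment is labelled, from lapatinib-resistant SKBr3 (LRSKBr3) cells kept in 2 μM lapatinib, an inhibitor of EGFR and HER2, and from BT-474 cells. BT-474 is another ERBB2-amplified breast cancer line, was starved and treated like SKBr3 and had 1 ChIP library per condition. With 1 list per condition there was no spread between replicates and no test was run. Intervals are 95% Wilson intervals, which cover counting error over sites only, and the sequencing depth behind the lists is unknown.

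ERRα, encoded by ESRRA, is an orphan nuclear receptor with no known natural hormone that is best known for driving genes of mitochondrial energy metabolism. It binds DNA through the ERRα response element (ERRE), whose extended form reads TCAAGGTCA. EGF activates the EGFR, which pairs with HER2, whereas HRG binds HER3 and activates HER2 through that partner. Both routes signal through the RAS-MAPK cascade to immediate early genes, among them FOS and JUN, whose products form the AP-1 dimer that binds TGACTCA or, read on the other strand, TGAGTCA.

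The sequences that best show these elements are those of the highest-ranked members. Rank was set by the lower of the percentiles that a member's score reached in the EGF and in the HRG list. The percentile is the share of peaks in that list with a lower score, with equal scores placed at the middle of their tie. Of the highest members with the AP-1 word within 100 bp of the HRG peak centre, 5 are shown first, from the plus strand of GRCh37, each named by the nearest protein-coding gene and with the word in capitals.
ZPBP chr7:50237314-50237350: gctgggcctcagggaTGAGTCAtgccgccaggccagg
TRPM2 chr21:45790419-45790455: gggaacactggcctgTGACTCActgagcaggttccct
TNIP1 chr5:150452387-150452423: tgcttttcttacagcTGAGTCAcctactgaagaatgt
BCL2L1 chr20:30284049-30284085: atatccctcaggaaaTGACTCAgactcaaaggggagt
VRK1 chr14:97846981-97847017: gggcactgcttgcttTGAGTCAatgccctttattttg

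The ZPBP site ranked 7 of all members and the TRPM2 site, in an intron of this calcium channel gene, ranked 14. A 14-letter run that is common in Alu repeats was present within 100 bp of the centre at 2.34% of members (1.96–2.80%) and in 4.78% of their flanking windows, against 1.14% of common sites, 3.62% of HRG-only sites and 0.163% of EGF-only sites. Of the 1138 members with the AP-1 word, 23 held it.

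The 2 highest members with the full ERRE, in capitals, and no AP-1 word were the following.
ETFB chr19:51865961-51865999: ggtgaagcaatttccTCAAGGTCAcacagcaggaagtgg
FOXF2 chr6:1486176-1486214: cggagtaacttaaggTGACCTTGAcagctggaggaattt

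The first of these lay in chromosome 19, 3590 bp from a start of ETFB, which encodes a subunit of the mitochondrial electron transfer flavoprotein, and 204 kb from the nearest vehicle peak.

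Members with both words within 100 bp of the centre numbered 61, or 1.21% (0.943–1.55%), against 0.436% of all sites and 0.538% of common sites. Sites with EGF alone had both at 0.795% (0.593–1.07%), an interval that overlapped that of the members. Of the highest members with both words, 5 are shown with the AP-1 word and the ERRE in capitals.
CNTN3 chr3:74838357-74838460: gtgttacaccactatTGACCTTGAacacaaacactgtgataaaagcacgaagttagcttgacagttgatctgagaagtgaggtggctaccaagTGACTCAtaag
TMEFF2 chr2:193365814-193365955: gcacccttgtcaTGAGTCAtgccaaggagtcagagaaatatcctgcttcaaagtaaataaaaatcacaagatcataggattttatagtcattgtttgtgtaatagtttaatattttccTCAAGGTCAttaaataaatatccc
C10orf90 chr10:128425426-128425526: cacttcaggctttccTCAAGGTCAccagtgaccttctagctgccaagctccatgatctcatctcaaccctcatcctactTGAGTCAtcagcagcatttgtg
UPP2 chr2:158755233-158755319: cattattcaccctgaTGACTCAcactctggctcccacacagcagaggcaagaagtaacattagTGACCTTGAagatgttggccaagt
GALNT1 chr18:33283236-33283349: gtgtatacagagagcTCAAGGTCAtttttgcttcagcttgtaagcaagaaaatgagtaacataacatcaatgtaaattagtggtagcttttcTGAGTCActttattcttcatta

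These 5 sites lay from 22069 to 306255 bp from the nearest start, and the words were 49 to 107 bp apart from centre to centre. Over all 61 members the spacing ran from 5 to 143 bp with a median of 43 bp. Of these, 14 members had the words within 20 bp of each other.

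**Figure D1:**
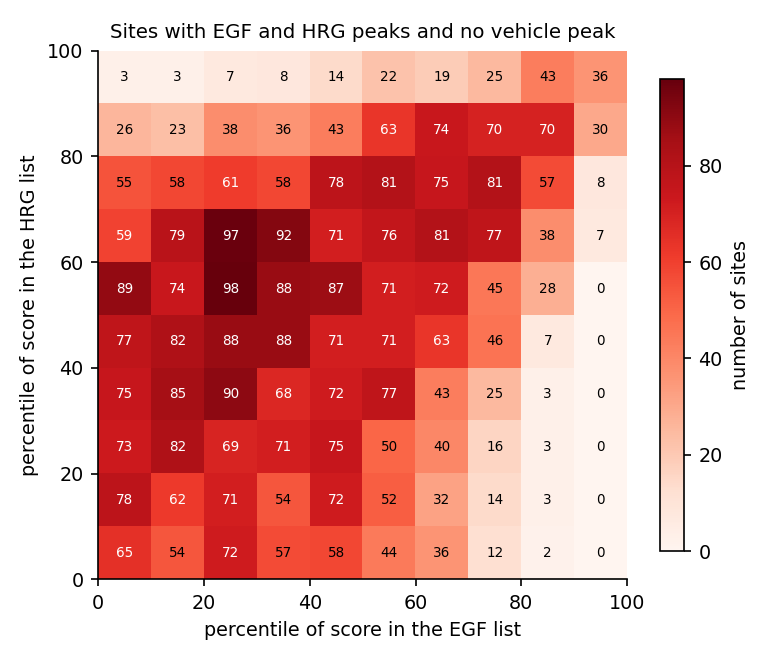
Number of members by the percentile of their score in the EGF list (horizontal) and in the HRG list (vertical), in bands of 10 percentiles. The members spread over most of the grid, and few combine a high EGF percentile with a low HRG percentile.

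Members were mostly simple, modest peaks. In 98.9% of them 1 EGF peak met 1 HRG peak, and the peak centres were within 100 bp of each other in 62.7%. The merged regions had a median width of 1409 bp. The caller's score, 10 times the negative log10 of the P value, had a median of 115.7 on EGF and 150.5 on HRG, against a lowest listed score of 50. The median percentile was 40.2 in the EGF list and 51.1 in the HRG list, while sites found in all 3 lists stood at 71.9 and 73.4. The EGF and HRG percentiles of a member rose together only weakly, with a Spearman correlation of 0.31 over 5042 sites that share their libraries. Both scores were at least 100 in 2117 members (42.0%), so that a stricter threshold for growth factor peaks would leave fewer than the 5042 by over 1.5 times.

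The nearest vehicle peak was a median of 17832 bp away. It was within 1 kb of 6.45% of members and over 100 kb away from 11.4%. Just inside the rule, 3 members were 0, 12 and 14 bp from a vehicle peak (near POP1, RND3 and FBXO7). Just outside it, 3 sites were touched by a vehicle peak over 46, 91 and 100 bp (near SFT2D3, PDE8B and FGD6).

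The 10 strongest members lay in or near PARVB, RHOD, MCFD2, HYDIN, SPSB1, SELPLG, ZPBP, SHANK3 and ZNF169. The top site, in an intron of PARVB at chr22:44432744-44434168, had a score of 3100.0 on EGF and on HRG, the value at which many scores of these lists stop. PARVB encodes β-parvin, which links integrins to actin. The same region had a score of 93.1 in pSKBr3 and 66.5 in LRSKBr3. In BT-474 it scored 353.5 on vehicle, 208.1 on EGF and 1000 on HRG. It thus ranked high on HRG in both lines and low in pSKBr3 and LRSKBr3, at percentiles of 34.5 and 14.8. The RHOD site scored 2636.5 on EGF and 3100.0 on HRG and had a peak in all 5 other lists. At MCFD2, whose product helps carry coagulation factors out of the endoplasmic reticulum, the scores were 2444.7 and 3100.0, and no BT-474 list had a peak.

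HYDIN, a gene for a protein of motile cilia, held members ranked 4 and 10, with EGF scores of 2151.8 and 3019.0. HYDIN has a near-identical copy elsewhere in the genome, so reads there are of uncertain origin. SPSB1, an adaptor of a ubiquitin ligase, held the member ranked 5 with scores of 2363.3 on EGF and 1974.7 on HRG. The site near ZPBP, which encodes a sperm protein, scored 2856.6 and 1868.7 and had no peak in any of the 5 other lists. SHANK3, a synaptic scaffold gene, and ZNF169, a zinc finger gene, were nearest to the members ranked 8 and 9. Of the 10 highest members, 8 had an LRSKBr3 peak and 6 a BT-474 HRG peak, where the members above the 75 percentile on HRG had one at 74.2% and 40.1%.

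Members also lay near genes that the study names in its account of ERRα. Of 9 such genes, 6 had a member within 20 kb of a start, where 14.2% of all protein-coding genes had one. SELPLG and TMEM119 shared theirs, and several of the genes were picked for binding in these same libraries, so the count is not independent evidence. The shared site of SELPLG, the P-selectin ligand gene, and TMEM119 ranked 6. It had no pSKBr3 or LRSKBr3 peak, and in BT-474 it was called on HRG alone, with a score of 229.1. A weaker neighbouring member, at percentiles of 41 on EGF and 63.2 on HRG, was called in pSKBr3 and LRSKBr3 and in no BT-474 list. The LAMA4 site had no peak in any of the 5 other lists, while the promoter site of TFF1, a target of oestrogen receptor, was called in all 3 BT-474 lists and in neither pSKBr3 nor LRSKBr3. SOD2, which encodes the mitochondrial superoxide dismutase, had an intronic member at the 78.9 percentile on EGF and 60.3 on HRG, called otherwise in LRSKBr3 alone. Within 20 kb of ESRRA lay 2 members, and the higher one had a peak in all 5 other lists. The members near ESRRA, SOD2 and SELPLG (the weaker one) that held the short form of the ERRE, AAGGTCA, are shown in that order with that word and any AP-1 word in capitals, again named by the nearest protein-coding gene.
CCDC88B chr11:64099353-64099407: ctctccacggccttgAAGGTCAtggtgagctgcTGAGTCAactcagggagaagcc
WTAP chr6:160137315-160137351: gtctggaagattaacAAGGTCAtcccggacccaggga
TMEM119 chr12:109003862-109003898: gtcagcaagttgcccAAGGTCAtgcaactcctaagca

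The first sequence, from the member 17594 bp from the ESRRA start, held both words, and the others held the receptor word alone. The ESRRA promoter itself, a known target that ERRα binds in its own gene, was no member, since it had a score of 3100.0 in all 8 lists.

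To ask whether growth factor sites recurred in cells for which no growth factor is labelled, the members were looked up in the LRSKBr3 and pSKBr3 lists. No serum starvation is labelled for these cells, and the study describes routine culture of both in medium with serum. About as many had an LRSKBr3 peak as lacked one, and most had no pSKBr3 peak. LRSKBr3 peaks overlapped 51.0% of members (49.7–52.4%, 2573 of 5042), and 54.4% of all 55998 sites. The share was 92.8% for common sites, those called on vehicle, EGF and HRG, and 39.9% where only HRG gave a peak. Sites of EGF alone reached 18.6% and those of vehicle alone 23.7%. Sites called on vehicle and EGF stood at 54.5% and those on vehicle and HRG at 85.3%, both above the members. The pooled share of members thus lay below that of all sites and above that of sites called on a single growth factor, but members also had higher HRG scores than HRG-only sites (median percentile 51.1 against 28.5). Within the upper HRG bands the order was the reverse, with 57.1% of members and 62.4% of HRG-only sites at percentiles from 50 to 75, and 74.2% and 84.6% above. In pSKBr3 the share of members was 22.7% (21.6–23.9%), against 33.8% of all sites and 75% of common sites. It was 18.6% with HRG alone and 4.01% with EGF alone. In each HRG band, however, members stood below HRG-only sites in pSKBr3, at 7.86% against 9.73% in the lowest band, where the intervals overlapped, 14.4% against 17.8% and 25% against 34.2% in the middle bands, and 47.5% against 60% in the highest. The LRSKBr3 margin over HRG-only sites shrank to 64.9% against 63% when peaks with a score under 100 were left out of all 3 lists. That cut also took out weak vehicle peaks, so its members could hold a vehicle peak with a score under 100. With the cut for EGF and HRG peaks only and the full vehicle list, the LRSKBr3 share was 54.4% of 2117 members. A peak in LRSKBr3 without one in pSKBr3 was found at 30.1% of members (28.9–31.4%) and 22.8% of all sites, and the opposite at 1.84% and 2.25%, so the same asymmetry was present over all sites. An LRSKBr3 peak alone of the pair was also at 36.5% of vehicle-and-EGF sites and 30.3% of vehicle-and-HRG sites. These lists differ in length, 22539 peaks for pSKBr3 and 39777 for LRSKBr3, and the part of list length in the gap was not tested.

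**Figure D2:**
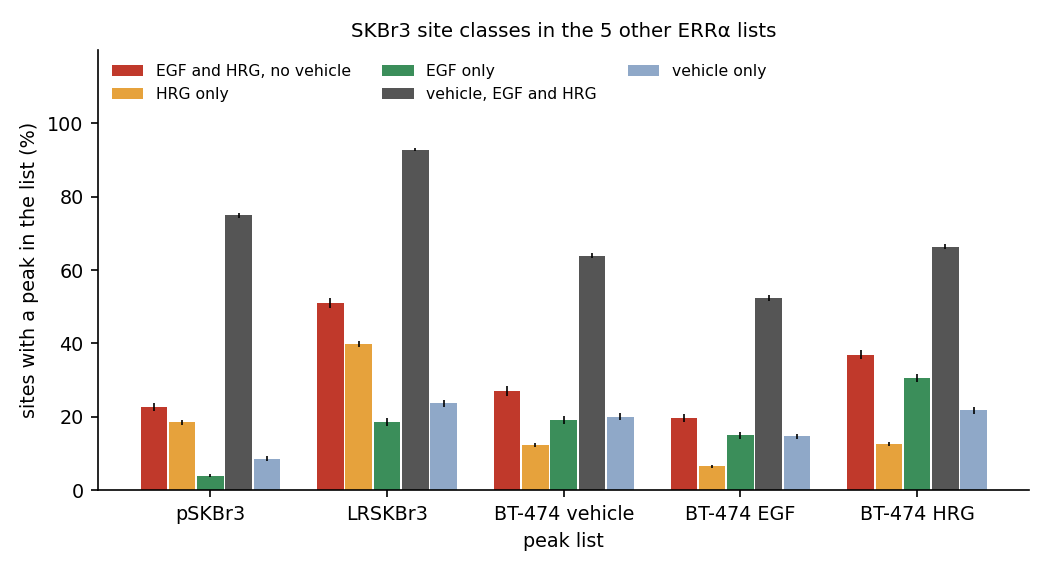
Share of SKBr3 sites (vertical, percent) with a peak in each of the 5 other ERRα lists, by the SKBr3 lists in which the site was called. Bars are shares with 95% Wilson intervals. Over all scores, members stand above HRG-only, EGF-only and vehicle-only sites in each list and below the sites called in all 3 SKBr3 lists. Sites called on vehicle and a single growth factor are not drawn. Those of vehicle and EGF stand above members in LRSKBr3 and in each BT-474 list. At like HRG scores the order against HRG-only sites is the reverse in pSKBr3 and, in the upper 2 bands, in LRSKBr3.

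The LRSKBr3 share was higher in higher HRG bands and not in higher EGF bands. By bands of 25 percentiles in the HRG list it was 33.3%, 41.6%, 57.1% and 74.2% from the lowest to the highest. By EGF band it was 55.6%, 52.0%, 45.5% and 48.9%. Over the EGF bands the pSKBr3 share went from 26.0% to 22.9%. HRG-only sites showed a like course in LRSKBr3, from 27.2% to 84.6%. The share also differed by distance to a start. An LRSKBr3 peak was at 77.9% of members within 1 kb of a start, at 57.1% of those 1 to 20 kb away and at 41.9% of those farther off. The share also went from 38.8% in members under 40% GC to 76.6% in members at 60% GC or more. For BT-474 HRG the order by GC was the opposite, from 59.4% to 20.4%. The part of GC content in these shares was not tested.

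The BT-474 lists, which the selection did not use, came from cells treated in the same way. A BT-474 peak was found at 37% of members on HRG (35.7–38.3%), at 27.0% on vehicle (25.8–28.3%) and at 19.6% on EGF (18.5–20.7%). All sites stood at 37.3%, 33.7% and 25.8%, and the 3 BT-474 lists differed in size, with 41271, 32259 and 26832 peaks. Members stood above HRG-only sites in BT-474 on HRG within each HRG band too, at 37.4% against 10.7% in the lowest and 40.1% against 23.3% in the highest. The BT-474 vehicle list showed this as well, at 26.4% against 9.52% in the lowest band and 31.2% against 23.3% in the highest. Of the 2074 members with any BT-474 peak, 40.8% had one in all 3 lists and 28.4% on HRG alone, against 53.9% and 15.7% over all sites. Sites of EGF alone had 34.3% on HRG alone. A BT-474 HRG peak without a BT-474 vehicle peak occurred at 13.6% of members (12.6–14.5%), against 8.02% of all sites, 7.94% of common sites and 4.09% of HRG-only sites. EGF-only sites reached 13.5%, the same as the members within counting error. A BT-474 EGF peak without a vehicle peak was at 2.40% of members (2.01–2.86%), near the 2.17% of all sites. The BT-474 lists shared 1 vehicle input. No peak in any of the 5 other lists was found at 29.4% of members and 32.5% of all sites, and 4.66% and 13.6% had one in all 5. Where BT-474 did have a peak on HRG, its median percentile was 61.2 at members and 77.0 at common sites.

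The AP-1 word was several times as frequent at members as at common or HRG-only sites. It was present within 100 bp of the centre at 22.6% of members (21.4–23.7%) and in 3.42% of equally wide windows taken 2 kb away on either flank (3.08–3.79%), against 9.64% of all sites. A single word was found in 1020 members and 2 words in 108. The word was at 8.25% of common sites (7.84–8.69%), at 7.78% where HRG alone gave a peak (7.34–8.23%) and at 3.24% where vehicle alone did (2.89–3.64%), all below the members. The interval of sites with EGF alone, 20.6% (19.6–21.7%), overlapped that of the members. The surplus over common sites held at every distance from a start. Within 1 kb of a start the word was at 10.2% of members and 3.25% of common sites, at 1 to 20 kb at 21.6% and 8.26%, and beyond 20 kb at 25.5% and 9.89%. Sites with EGF alone had the word at 19% within 1 kb of a start (14.1–25.2%), above the members there (7.86–13.3%). The surplus over common and HRG-only sites held by GC content too. In windows of 40 to 50% GC the shares were 26.4% for members, 9.71% for common and 11.5% for HRG-only sites, and at 60% or more they were 13.2%, 3.98% and 4.29%.

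**Figure D3:**
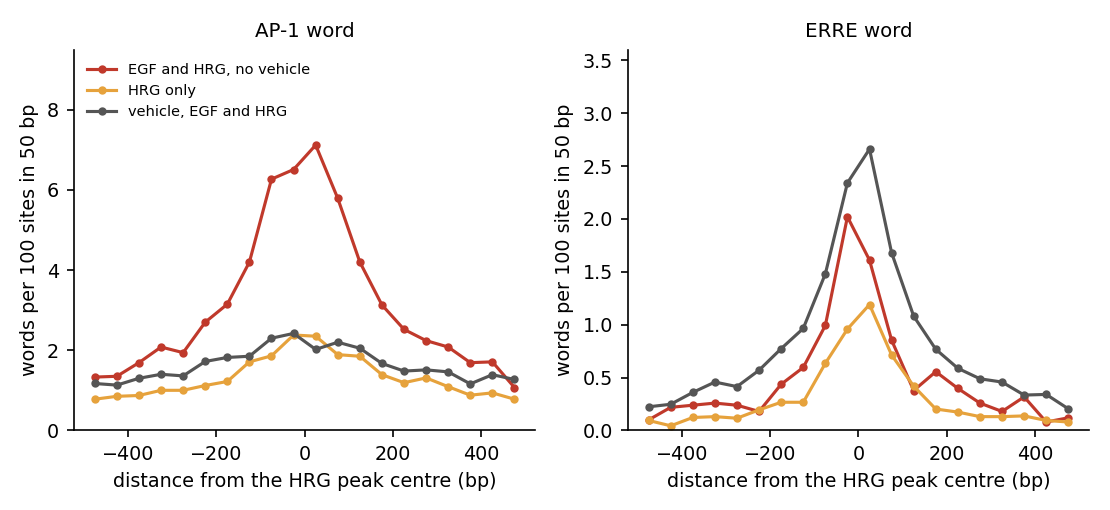
AP-1 and ERRE words per 100 sites (vertical) in steps of 50 bp from the HRG peak centre (horizontal) for members, HRG-only sites and sites called on vehicle, EGF and HRG. At members the AP-1 word reaches 7.12 per 100 sites beside the centre and 1.07 at the far right, and the ERRE is narrower and highest at the sites of all 3 lists.

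AP-1 words gathered at the peak centre. There were 6.51 and 7.12 of them per 100 members in the 50 bp to the left and right of the centre, and 1.33 and 1.07 at 450 to 500 bp. The bases beside the word also differed from those in the flanks. A T just before TGACTCA or an A just after it occurred in 16.9% of 1271 words at members (15–19.1%) and in 36.6% of 358 words in the flanks (31.8–41.7%). The commonest form at members had a G before and a C after the word, at 11.4% of words.

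The share with AP-1 was higher at higher EGF scores and lower at higher HRG scores, values that also served to select the sites and are given as a description. From the lowest to the highest EGF band it was 15.7% (14–17.6%), 22.5%, 26.2% and 33.5% (29.6–37.7%). From the lowest to the highest HRG band it was 25.6% (23.1–28.3%), 23.6%, 21.9% and 18.9% (16.6–21.5%). Among common sites it went from 4.80% to 10.2% over the EGF bands and from 8.24% to 8.03% over the HRG bands, and among HRG-only sites it stayed between 7.70% and 8.13%. Sites with EGF alone had it at 19.1% in the lowest EGF band, above the members, and at 22.2%, 24.2% and 25% in the next ones.

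**Figure D4:**
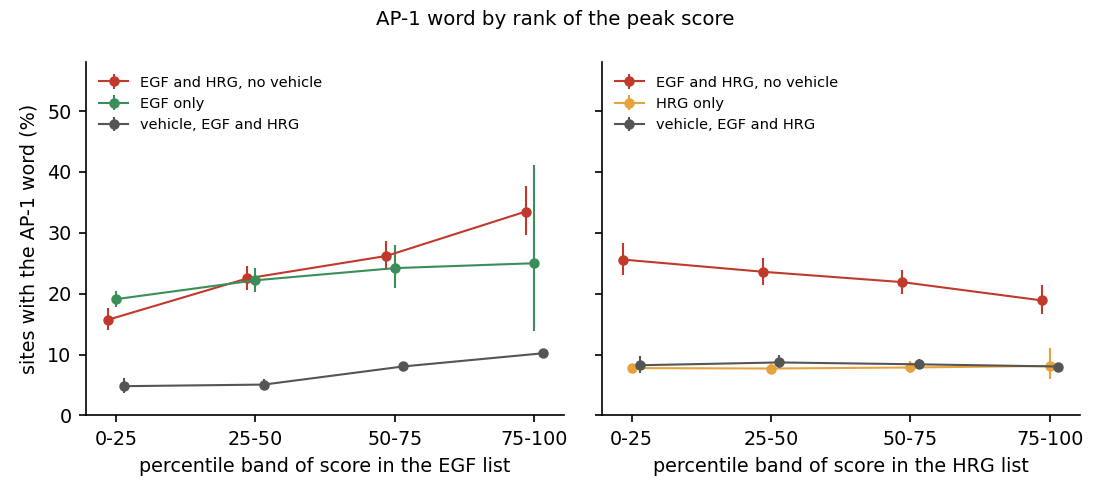
Share of sites with the AP-1 word within 100 bp of the centre (vertical, percent) by band of score percentile in the EGF list (left) and in the HRG list (right), with 95% Wilson intervals. Members go from 15.7% to 33.5% with the EGF band and from 25.6% to 18.9% with the HRG band, above the sites of all 3 lists throughout.

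Members with the word were found in LRSKBr3 less often than those without it. An LRSKBr3 peak was at 31.1% of members with the AP-1 word (28.5–33.9%) and at 56.8% of those without it (55.3–58.4%). The word was at 33.1% of the 1482 members with no peak in any other list, and at 11.1% of the 235 members with a peak in all 5. Members called in BT-474 on HRG and not on vehicle had it at 26.6% (23.4–30%), and those called there on vehicle and on HRG at 18.8% (16.7–21.1%). Members with the word had higher EGF percentiles (median 48.1 against 37.7 without it), lower HRG percentiles (48.0 against 52.0) and nearly the same mean GC content (48.4% against 49.5%).

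The full form of the receptor's own element was about as frequent at members as over all sites, and the short form more frequent. The full ERRE was at 5.28% of members (4.69–5.93%), in 0.288% of flanking windows and at 5.72% of all sites. It was at 7.67% of common sites (7.27–8.09%) and at 3.39% of HRG-only sites (3.10–3.71%), which put the members between them. EGF-only sites, at 5.60% (5.02–6.24%), were the same as the members within counting error. The short form AAGGTCA was at 26.0% of members (24.8–27.3%), 21.5% of all sites, 14.5% of HRG-only sites, 24.2% of EGF-only sites, 26.8% of common sites and 3.65% of flanks. The ERRE was no rarer beside AP-1, being at 5.36% of members with the AP-1 word and 5.25% of those without it. Either the AP-1 word or the full ERRE was found at 26.6% of members, and the rest held neither.

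Among all 5804 words of 7 letters found at 50 or more members, AAGGTCA stood highest over the flanks (7.13 times) and TGACTCA next (6.60 times). Over common sites TGACTCA ranked first at 2.73 times, whereas AAGGTCA stood at 0.970 times. The next 4 words in that order overlapped TGACTCA with a shift by a base, and GGATTAC and GATTACA, which occur in Alu repeats, ranked 11 and 14 at 1.81 and 1.75 times, though both were rarer than in the flanks (0.561 and 0.549 times). Elements of other factors differed less from the flanks and stood near their share over all sites. The TEAD word GGAATG was at 15.8% of members, 14.9% of all sites and 11.4% of the members' flanks. The AP-2 word GCCNNNGGC was at 9.30%, 8.77% and 5.33%, the forkhead word TGTTTAC at 3.87%, 4.2% and 2.30%, and the ETS word CCGGAAG at 1.63%, 1.94% and 0.704%. The GATA word AGATAA was less frequent at members (9.80%) than in the flanks (11.4%), as it was over all sites (11.0% against 12.6%), and the STAT word TTCNNNGAA did not differ beyond counting error (5.81% against 5.50%). The CRE word TGACGTCA, which JUN and ATF dimers also bind, was at 0.258% of members, 0.246% of all sites and 0.0992% of flanks.

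Most members lay away from promoters. Within 1 kb of a protein-coding start were 9.68% (8.89–10.5%), against 12.2% of all sites, 17.5% of HRG-only sites, 16.5% of common sites and 3.41% of EGF-only sites. Introns held 43.2% of members, intergenic sequence 44.9% and exons the small remainder, and 53.2% lay over 20 kb from any start, against 56.5% of all sites. Promoter members ranked low on EGF (median percentile 26.5) and middling on HRG (58.1).

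Within 20 kb of a start, 2803 protein-coding genes had a member, or 14.2% of 19807. Of these genes, 982 had no vehicle peak in the same range, and for the others the member added to a peak already called on vehicle. ABCC3, an export pump for organic anions, and SPSB1 had 6 members each, and FHL2, a LIM-domain cofactor, had 5. An LRSKBr3 peak was at all 5 FHL2 members, at 4 of the 6 SPSB1 members and at 2 of the 6 ABCC3 members. The AP-1 word was at 3 of the SPSB1 members and at none of the others. Another 10 genes had 4 members: ADORA1, BMERB1, IDS, IER2, MACF1, MLPH, PACSIN2, RBM47, SFI1 and STX10. IER2 and STX10 are neighbours and shared their sites, and MACF1, which links actin to microtubules, had BT-474 HRG peaks at all 4.

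**Figure D5:**
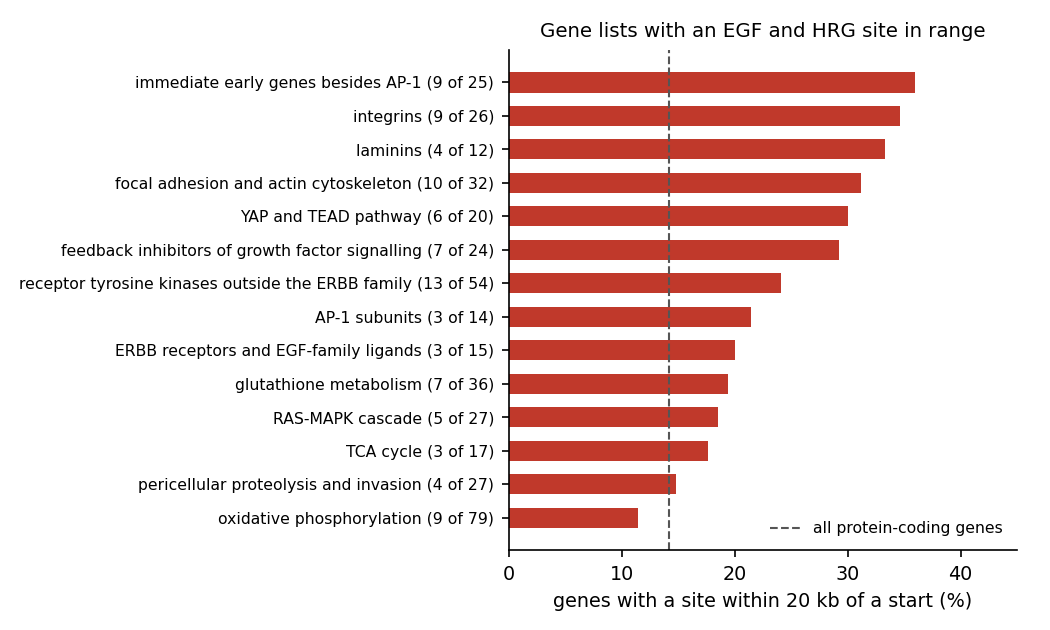
Share of genes (horizontal, percent) with a member within 20 kb of a start, for 14 gene lists, with the count in brackets and without the genes named by the study. The dashed line is the 14.2% of all protein-coding genes, and the lists run from 11.4% for oxidative phosphorylation to 36% for immediate early genes.

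Genes of the growth factor response were described by lists, with 14.2% of all genes as the reference. The intervals of AP-1 subunits, ERBB receptors and ligands, the RAS-MAPK cascade, laminins, pericellular proteolysis and the 3 metabolic lists all included that share. Immediate early genes other than AP-1 had a member in 9 of 25 cases (36%, 20.2–55.5%). NR4A1, an orphan nuclear receptor, and CCN2, a matricellular protein, had one at the promoter, 14 and 67 bp from a start. IER2 had 4 in range and no vehicle peak, whereas the other 8 genes also had a vehicle peak. KLF6, ZFP36L1 and ZFP36L2 had 1 each, and the ZFP36L2 site reached the 75 percentile on EGF and 81.2 on HRG. Among AP-1 subunits 3 of 14 had a member (21.4%, 7.57–47.6%), namely JUNB with 2, JUND with 3 and ATF3 with 1, and of these 6 sites 1, near JUND, held the AP-1 word. FOS, JUN and FOSL1 were not among them.

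Inhibitors that feed back on growth factor signalling had a member in 7 of 24 cases (29.2%, 14.9–49.2%), 4 of them without a vehicle peak in range. SPRY2, which dampens receptor signalling to RAS, and PHLDA1 had one at the promoter, and the DUSP7 site, near a phosphatase of ERK, held the ERRE and stood at percentiles of 80.4 and 75.5. Of the ERBB receptors and their ligands 3 of 15 had a member (7.05–45.2%), in ERBB3, HBEGF and NRG4. The ERBB3 site lay in an exon with untranslated sequence and had peaks in pSKBr3 and LRSKBr3. Other receptor tyrosine kinases had one in 13 of 54 cases (24.1%, 14.6–36.9%), among them EPHA2, DDR1, IGF1R and MST1R. The DDR1 promoter site, at the 94.4 percentile on HRG, was called in all 5 other lists. The RAS-MAPK cascade had 5 of 27 (18.5%, 8.18–36.7%), and RPS6KA1, a kinase downstream of ERK, had 2 members, the intronic one with the AP-1 word and percentiles of 88.9 and 78.1.

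Adhesion genes were next. Integrins had a member in 9 of 26 cases (34.6%, 19.4–53.8%) and the focal adhesion and actin list in 10 of 32 (31.2%, 18–48.6%). Laminins had one in 4 of 12 (33.3%, 13.8–60.9%), which at this list size could not be told from the share of all genes. Integrin and receptor tyrosine kinase pathways are among those that the study drew from these same libraries, so the counts are not independent evidence. ITGA3 had 3 members and ITGA5, the fibronectin receptor subunit, had 2. The ITGAV member and 1 of ITGA3 held the AP-1 word and were called in BT-474 on HRG but not on vehicle. The LAMA3 promoter site, 3 bp from a start, held the AP-1 word as well, and the LAMA5 site upstream of the gene reached percentiles of 76.1 and 89.9. The intronic site of VASP, which promotes actin filament growth, reached the 93.6 percentile on HRG. Common sites were also frequent near these lists, at 57.7% of integrin, 58.3% of laminin and 75% of focal adhesion genes against 38.9% of all genes. The YAP and TEAD list had 6 of 20 (30%, 14.5–51.9%), with promoter members at TEAD4, CCN2, VGLL1 and VGLL4, and shares CCN1 and CCN2 with the immediate early list. Pericellular proteolysis genes had 4 of 27 (14.8%, 5.92–32.5%), close to all genes, and the intronic site of CD44, a hyaluronan receptor, stood at percentiles of 81.1 on EGF and 17.9 on HRG.

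Mitochondrial genes mostly had common sites. Oxidative phosphorylation genes had a common site in 71 of 79 cases (89.9%) and a member in 9 (11.4%, 6.11–20.3%), each of these with a vehicle peak in range as well. TCA cycle genes had a common site in 16 of 17 cases and a member in 3 (17.6%, 6.19–41.0%), CS, IDH3A and SUCLG2. Glutathione genes had a member in 7 of 36 cases (19.4%, 9.75–35%), all with a vehicle peak in range. The highest of these on EGF lay in an intron of GCLC, which encodes the catalytic subunit of the rate-limiting enzyme of glutathione synthesis, at the 79.7 percentile. GSTM2 and GSTM4 shared their member. Sites within 20 kb of several starts were counted for each gene, and no expression was measured in these files.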

How the data were processed

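ERRα ChIP-seq of 19 libraries was reduced by the authors to 8 deposited peak lists, in which column 5 is the peak score, 10 times the negative log10 of the MACS P value (lowest score 50, P = 1e-05). Reads had been aligned to hg19 with BWA 0.5.9. The SKBr3, pSKBr3 and LRSKBr3 lists each stand for 2 ChIP libraries and 1 input, and comment lines in the SKBr3 lists name FindPeaks as their writer. No read counts were used here, so depth and signal at uncalled sites are unknown.

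Peaks of the SKBr3 vehicle, EGF and HRG lists were merged by 1 bp overlap. Other lists were overlapped with the merged regions in the same way. Words were sought on both strands of GRCh37 within 100 bp of the centre of the strongest HRG peak (otherwise EGF, then vehicle) with pysam 0.24.0, and in windows 2 kb to each side. The members, the words and the 15 gene lists were chosen with earlier results of these data known. Starts came from GENCODE lift to GRCh37 (19807 protein-coding genes). Named sites were the 10 highest by the lower percentile, the genes with most members, members near listed genes or genes named by the study, the 6 highest with AP-1 and the 6 highest with both words, and 3 on each side of the rule. The letters beside AP-1, the Alu run and the highest ERRE sites were examined after the words were seen. The functions were tested on simulated peaks and sequences. Repeats were not annotated, and a few sites and sequences covered by these rules are not reported here.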

Additional observations from a re-analysis of the deposited data

How the results depend on the processing

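Of 50 recomputed values of 8 results, 28 stayed within the interval given above or, for counts, within 1.5 times. With a score of at least 100 for EGF and HRG peaks and the full vehicle list, members fell to 2117, genes to 1253 and promoter members to 7.42%, while LRSKBr3 stood at 54.4%, pSKBr3 at 26.2%, BT-474 HRG at 40.1% and AP-1 at 24.9%. With that score in all 3 lists, members were 3474 and could hold a vehicle peak with a score under 100. There LRSKBr3 stood at 64.9%, pSKBr3 at 34.8%, BT-474 HRG at 43.3% and AP-1 at 21.0% (common sites 7.95%, EGF-only sites 21.2%). Lists of equal size gave 53.5% for LRSKBr3 and 24.4% for pSKBr3. Peak centres within 500 bp gave 43.9%, 18.4% and 27.7% for LRSKBr3, pSKBr3 and BT-474 HRG. A window of 50 bp gave 12.2% for AP-1 and 3.39% for the ERRE, the EGF centre 23.8% for AP-1, the short word 26.0% for the ERRE, promoters of 500 bp 6.68% and starts within 10 kb 1795 genes. Narrower windows and distances hold fewer words and starts, and a shorter word occurs more often. The cause of the other changes was not tested. Overlap of 50% of both peaks gave 4990 members, and no vehicle peak within 1 kb left 4717, with every share inside its interval. No paired analysis was possible because each condition had 1 list and no result came from a test.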

Other observations

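Members were unevenly spread over the chromosomes. On chromosome 7, 224 of 5670 sites (3.95%) were members, the lowest share of any chromosome but Y, and this chromosome held 3497 vehicle peaks. Chromosome 18 had the highest share, with 98 of 663 (14.8%), and chromosome 16 followed with 12.8%. Members tended to stand alone: joined when centres were up to 20 kb apart, 4066 were single and 976 fell into 452 groups. The largest groups were 6 members at ABCC3, 5 near NPIPB11 and 5 near ZNF469, with 4 vehicle peaks in the span of the first and none in the spans of the others. NPIPB11 belongs to a family of near-identical copies, so reads there are of uncertain origin. Widths of 5 kb or more were found in 151 members (2.99%).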
